A study of Homo sapiens with 2 samples.

Results

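Signals of 32 genes of the integrated stress response and the unfolded protein response were measured in C4-2 prostate cancer cells after transfection with the microRNA miR-99a. The members were chosen by name, with earlier results of these data known. Their shares below therefore describe them and are not independent of the data. They are 21 genes of ATF4 signalling and amino acid supply and 11 genes of the endoplasmic reticulum. They come out of 19775 genes to which the array annotation assigns a probe set of their own. All 57 probe sets that the platform annotation assigns to exactly 1 of these genes were used. Total RNA of C4-2, a line that descends from LNCaP, expresses the androgen receptor and was grown in RPMI medium with serum, was hybridised to Affymetrix oligonucleotide arrays. The first group received miR-99a and the control group si-GL2, a small interfering RNA named after a luciferase reporter. Both were introduced with the lipid reagent RNAiMax and harvested 48 h later. Each group holds 1 array of 1 cell line. Every difference below is therefore between 2 arrays, with no replicate error and no p-value, and a difference between the transfections cannot be told apart from any other difference between the cultures.

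Cells that lack an amino acid, or whose endoplasmic reticulum holds misfolded protein, phosphorylate the translation factor eIF2. This lowers protein synthesis in general but raises translation of the mRNA for ATF4, a transcription factor that switches on genes of amino acid uptake, amino acid synthesis and tRNA charging. The endoplasmic reticulum has further sensors, IRE1 and ATF6, which act through the transcription factor XBP1 and through cleaved ATF6 on chaperones and on the machinery that removes misfolded proteins. In prostate cancer cells this network has been studied for its links to growth signalling through mTOR and to androgen action.

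The mature sequences of the miR-99 family are shown because miR-99a is the agent that separates the groups. The labels name no arm, and the 5p arm is printed, from RefSeq (GRCh38.p14), with the seed, bases 2 to 8, in capitals. The loci are chr21:16539101-16539122 on the plus strand for miR-99a, chr19:51692618-51692639 on the plus strand for miR-99b and chr11:122152275-122152296 on the minus strand for miR-100. All share the seed.
hsa-miR-99a-5p: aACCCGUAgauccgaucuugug
hsa-miR-99b-5p: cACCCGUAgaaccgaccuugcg
hsa-miR-100-5p: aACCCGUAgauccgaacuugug

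Promoter stretches are shown next, because some of the genes carry short sites through which the stress factors are known to act. RefSeq windows (GRCh38.p14) from 250 bases before to 50 after a start site were found for 29 members, and PSPH, SHMT2 and SLC7A11 had none. The composite site TGATGNAAN, bound by dimers of C/EBP and ATF proteins, was searched on both strands. It matched 5 of 28 windows of the amino acid genes (ATF3, ASNS, CHAC1, AARS1 and SLC3A2, in the last after the start site), 1 of 13 windows of the endoplasmic reticulum genes (HERPUD1) and 3.61% of all 35116 windows. Windows of 1 gene can overlap. The matches in CHAC1, AARS1 and HERPUD1 held the same 9 letters, GTTGCATCA on the gene's strand. The match is in capitals and each line reads in the gene's direction, with 40 bases to either side where these lie before the start site. The stretches are chr15:40953221-40953309 (plus strand) for CHAC1, chr16:70289646-70289734 (minus) for AARS1, chr16:56931925-56932013 (plus) for HERPUD1 and chr7:97872428-97872516 (minus) for ASNS.
CHAC1: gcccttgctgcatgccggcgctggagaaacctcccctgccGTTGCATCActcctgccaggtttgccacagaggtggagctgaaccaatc
AARS1: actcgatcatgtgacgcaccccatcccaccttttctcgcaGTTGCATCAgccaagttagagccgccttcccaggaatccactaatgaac
HERPUD1: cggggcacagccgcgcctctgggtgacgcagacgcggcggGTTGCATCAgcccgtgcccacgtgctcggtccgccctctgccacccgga
ASNS: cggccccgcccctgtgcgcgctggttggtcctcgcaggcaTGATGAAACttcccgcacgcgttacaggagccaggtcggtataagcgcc

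The endoplasmic reticulum stress element, CCAAT and CCACG with 9 bases between them, was searched on both strands as well. It matched 3 of 13 windows of the endoplasmic reticulum genes, those of HSPA5, XBP1 and CRELD2, 0 of 28 windows of the amino acid genes, and 0.077% of all windows. The unfolded protein response element TGACGTGG, whose reverse complement begins with CCACG and so can share 5 bases with the stress element, matched HYOU1 alone among the members and 0.73% of all windows. The stretches are chr9:125241351-125241449 (minus strand) for HSPA5, chr22:28800570-28800661 (minus) for XBP1, chr22:49918514-49918612 (plus) for CRELD2, where the element is on the opposite strand, and chr11:119057346-119057433 (minus) for HYOU1. The last line gives the 100 bases before the first start site of ASS1, chr9:130444607-130444706 (plus), since ASS1 differed most of all members; none of the motifs matched its windows.
HSPA5: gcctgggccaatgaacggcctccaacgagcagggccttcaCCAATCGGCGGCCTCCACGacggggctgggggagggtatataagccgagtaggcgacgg
XBP1: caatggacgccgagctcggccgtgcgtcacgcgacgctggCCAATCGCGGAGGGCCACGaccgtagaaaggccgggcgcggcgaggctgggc
CRELD2: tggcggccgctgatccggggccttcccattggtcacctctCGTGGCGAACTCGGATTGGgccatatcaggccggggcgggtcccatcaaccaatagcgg
HYOU1: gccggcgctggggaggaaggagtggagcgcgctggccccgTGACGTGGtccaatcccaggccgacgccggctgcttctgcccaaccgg
ASS1: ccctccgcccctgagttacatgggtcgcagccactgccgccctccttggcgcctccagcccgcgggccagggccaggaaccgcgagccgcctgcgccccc

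Levels are given as the deposited signal, on a linear scale, with miR-99a first. A difference is log2(signal + 16), miR-99a minus si-GL2, which understates the change of dim probe sets. A probe set counts as expressed when its mean over both arrays was at or above that of the middle probe set of the array, a signal of 47.2, and as higher or lower past 1.5-fold (0.58 on this scale), which is a criterion of size without a test. The median signals of the arrays were 47.8 and 47.4. Probe sets for hybridisation spikes, 18 in all, differed by -0.12 to 0.06. Expressed probe sets of the same gene differed among themselves with a median SD of 0.13 over 5842 genes. Of 22401 expressed single-gene probe sets, 1.53% were higher past 1.5-fold and 2.76% lower, with a median difference of -0.02. All 6 luminal prostate markers with a probe set here (KLK3, TMPRSS2, HOXB13, FOLH1, KRT8 and KRT18) were expressed, at signals of 312 or more. The limit was also reached by 4 of 5 fibroblast, 2 of 3 leukocyte and 1 of 3 endothelial markers, at signals up to 233, and by 0 of 2 basal ones. Reaching the limit therefore does not by itself establish that a gene is expressed, above all at dim signals. Summed signals of 5 fibroblast markers were 499.7 and 429, of 3 leukocyte markers 172 and 149.6, of 3 endothelial markers 222 and 215 and of 2 basal markers 35.2 and 40.5. Their part in the results was not tested. In bulk RNA, fewer cells that express a gene and less RNA per cell cannot be told apart.

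The largest differences among the 32 genes were in SLC7A11, the cystine transporter, and ASS1, an enzyme of arginine synthesis, while the mRNA of ATF4 itself hardly differed. All members had at least 1 expressed probe set, 52 of 57 in total. Of these 52, 3 were higher past 1.5-fold (5.77%, against 1.53% of all) and 0 were lower (against 2.76%). The 3 belonged to SLC7A11 and ASS1. Of the 32 expressed probe sets of the amino acid genes, 21 lay above 0 and their median was 0.06, and without SLC7A11 and ASS1 it was 0.04 over 28. Of the 20 of the endoplasmic reticulum genes, 6 lay above 0 and the median was -0.10. Over all expressed single-gene probe sets, 46.0% lay above 0.

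**Figure D1:**
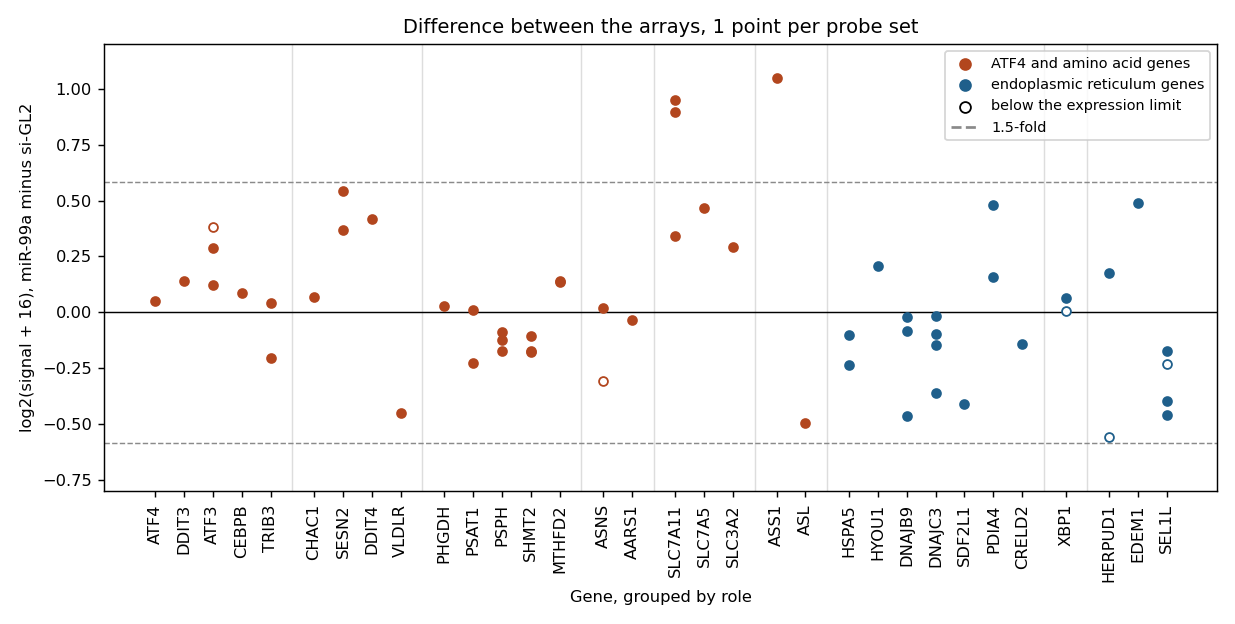
Difference in log2(signal + 16), miR-99a minus si-GL2, for each probe set (1 point each) of the 32 genes, grouped by role. Filled points are expressed, open points lie below the expression limit and dashed lines mark 1.5-fold. Only probe sets of SLC7A11 and ASS1 lie past the upper line, and none lies past the lower one.

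The transcriptional regulators differed little. ATF4, the factor at the centre of the response, was 4672 with miR-99a and 4506 with the control (0.05). DDIT3, which encodes CHOP, a factor of the late stress response linked to cell death, was 1032 against 936 (0.14). CEBPB, a partner of ATF4 in composite sites, was 2021 against 1899 (0.09). All of these were slightly brighter on the miR-99a array, by about the spread between probe sets of 1 gene or less. ATF3, a stress-induced member of the same family, was 829 against 760.4 (0.12) by its brightest probe set and 169 against 136 (0.29) by its second. The dim remaining probe set of ATF3, below the limit, was 52.2 against 36.4 (0.38), so that all 3 were higher after miR-99a. TRIB3, a pseudokinase that ATF4 and CHOP induce and that restrains them, was 2403 against 2774 (-0.21) by its brightest probe set and 490.1 against 476 (0.04) by the other. Its probe sets thus went apart, and none of the 7 expressed probe sets of the regulators passed 1.5-fold. ATF4 is controlled largely at translation, and its protein was not measured here.

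Among the stress effectors, SESN2 and DDIT4 were higher and VLDLR was lower, all short of 1.5-fold. SESN2, a leucine sensor that restrains mTOR complex 1, was 249.98 against 190.1 (0.37) by one probe set and 146 against 95.4 (0.54) by the other. The ratio of the deposited signals of the dimmer one was 1.53, which the added 16 brings under the size rule. DDIT4, also known as REDD1 and likewise an inhibitor of mTOR complex 1, was 5586 against 4171 (0.42). All 3 probe sets of these mTOR inhibitors were therefore brighter after miR-99a, by 0.37 to 0.54. VLDLR, a lipoprotein receptor that is induced through ATF4 under stress, went the other way, at 212 against 295 (-0.45). CHAC1, which degrades glutathione and is among the most responsive ATF4 targets, was 231 against 219.9 (0.07). It carries the composite site shown above, as do ATF3 (0.12 and 0.29), ASNS, AARS1 and SLC3A2.

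Enzymes of serine synthesis and of the mitochondrial folate pathway were close to the control. PHGDH, the first enzyme of serine synthesis from glycolysis, was 4682 against 4584 (0.03). PSAT1, the second, was 2451 against 2868 (-0.23) by its brightest probe set and 1332 against 1323 (0.01) by the other. PSPH, the last, was 1339 against 1511 (-0.17), 514 against 561 (-0.12) and 65.75 against 70.95 (-0.09). The 3 probe sets of PSPH were thus all slightly lower. SHMT2, which passes a carbon from serine to folate in mitochondria, was 2433 against 2748 (-0.17), 1199 against 1357 (-0.18) and 474 against 512 (-0.11), again lower in every probe set. MTHFD2, the next enzyme of that pathway, was 4313 against 3922 (0.14) and 199.7 against 179 (0.14). Neighbouring steps therefore lay on opposite sides of 0, within a narrow range: the 11 probe sets of the 5 enzymes lay between -0.23 and 0.14, with an SD of 0.13 against 0.27 over all expressed single-gene probe sets. One further probe set, assigned to PHGDH and 2 other genes and so left out by the rule, was 6312 against 6671 (-0.08).

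Asparagine synthesis and the charging of alanine tRNA were nearly equal on the arrays by their bright probe sets. ASNS, asparagine synthetase, was 2639 against 2600.0 (0.02), and its dim second probe set, below the limit, was 12.0 against 18.6 (-0.31). AARS1, alanyl-tRNA synthetase, was 3153 against 3232 (-0.04). Both are textbook ATF4 targets.

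**Figure D2:**
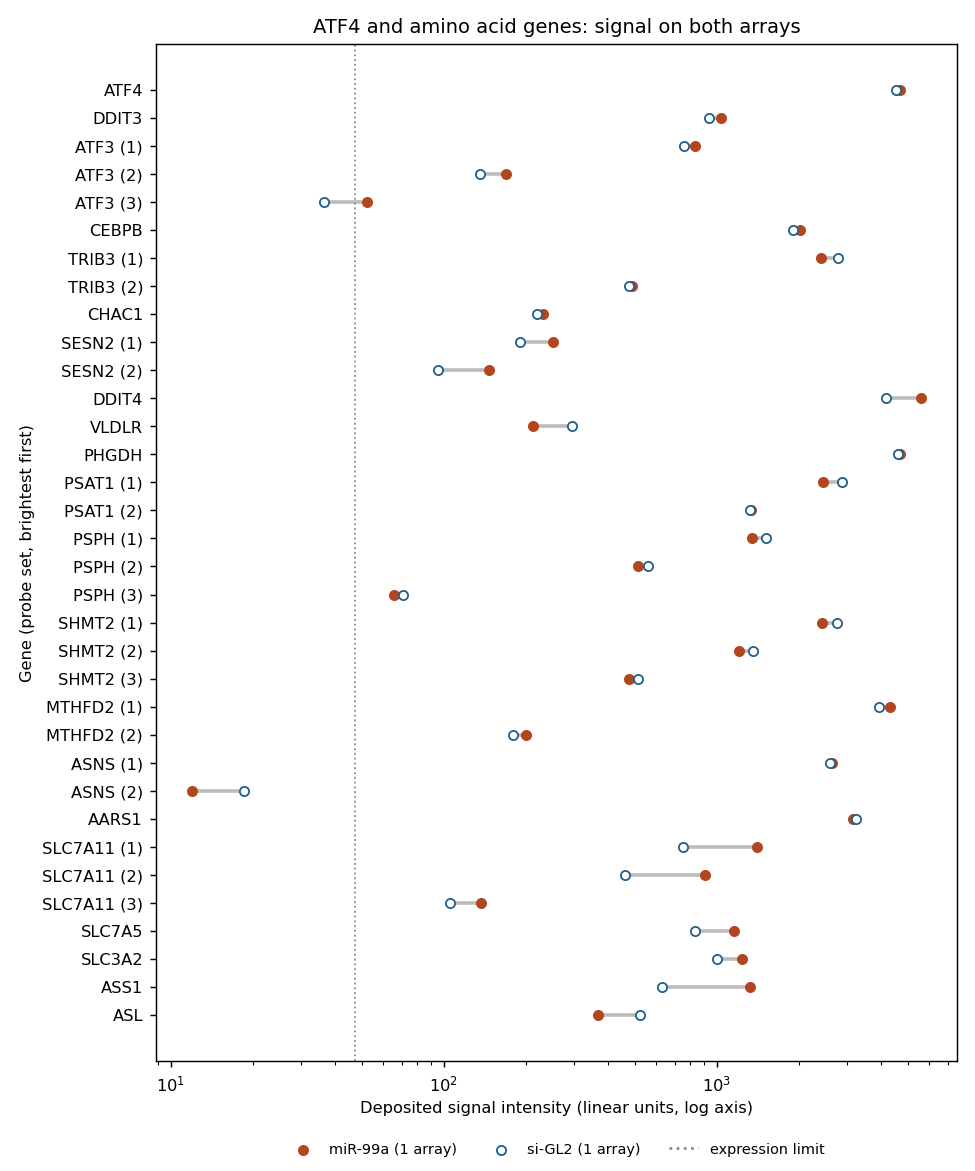
Deposited signal on a log axis for each probe set of the 21 ATF4 and amino acid genes, with a filled point for the miR-99a array, an open point for the si-GL2 array and a dotted line at the expression limit of 47.2. The gaps are widest for SLC7A11 (1) and (2) and for ASS1, and the points of ATF4, PHGDH, ASNS (1) and AARS1 nearly coincide. Signals of different probe sets are not comparable with each other.

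All 3 amino acid transporter genes were higher after miR-99a in every probe set. SLC7A11 encodes xCT, the light chain that exchanges cystine for glutamate and feeds glutathione synthesis. Its brightest probe set was 1405 against 748 (0.90), its second 903 against 460.3 (0.95) and its dimmest, marked as a kind that can match several transcripts, 137 against 105 (0.34). The brighter pair is past 1.5-fold and ranks 59 and 44 from the top among 22401 expressed probe sets, while the dimmest is not past it. Over its 3 probe sets SLC7A11 had a mean difference of 0.73. SLC7A5 encodes LAT1, the light chain that imports leucine and other large neutral amino acids, and was 1156 against 833 (0.47). SLC3A2 encodes 4F2hc, the heavy chain that both light chains need to reach the membrane, and was 1230.5 against 1000.4 (0.29). The 5 probe sets of the transporters had a median of 0.47 and a lowest value of 0.29. Of the 5, 2 were higher past 1.5-fold, both of SLC7A11, against 1.53% of all expressed single-gene probe sets.

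The members of arginine synthesis differed in opposite directions. ASS1, argininosuccinate synthase, the rate-limiting step that joins citrulline and aspartate, was 1322 against 630.4 (1.05), a ratio of signals of 2.10 and rank 24 from the top. ASL, argininosuccinate lyase, which splits the product into arginine and fumarate, was 366 against 524 (-0.50), rank 999 from the bottom and short of 1.5-fold. Each is measured by 1 probe set, so neither has a check within the arrays. The probe set of ASS1 is of the same kind that can match several transcripts, as are the only ones of SLC7A5 and SLC3A2. In all, 27 of the 52 expressed probe sets are of the _s_ or _x_ kind, and 12 members have no other.

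**Figure D3:**
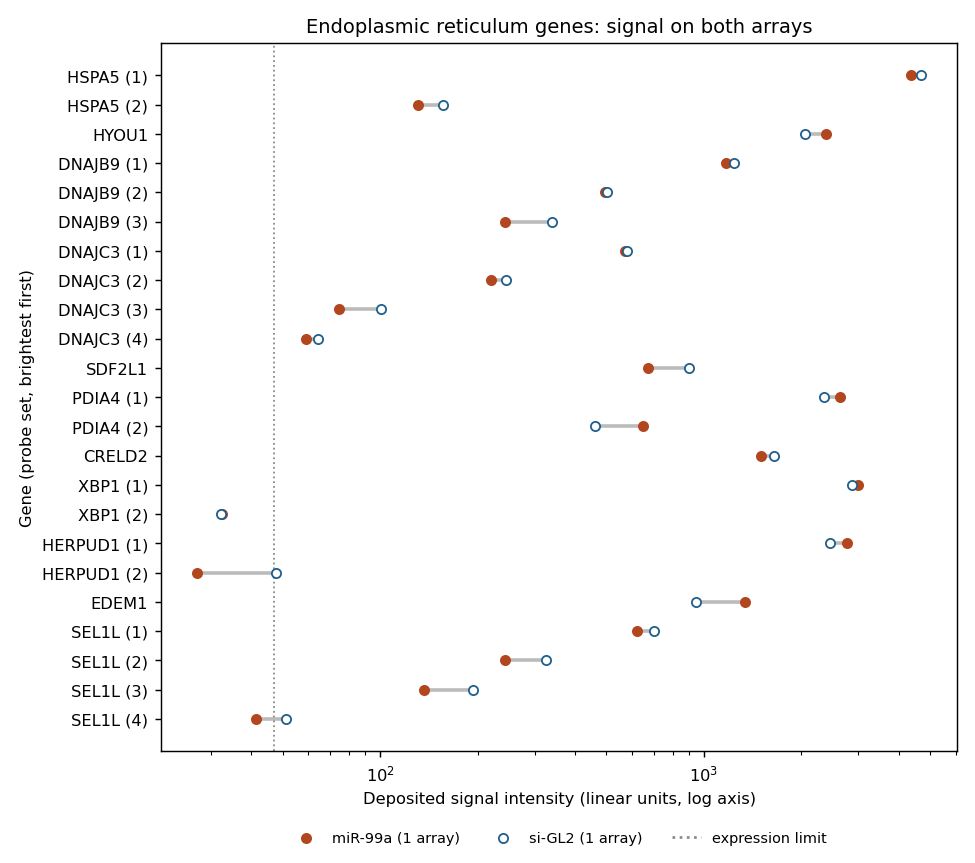
Deposited signal on a log axis for each probe set of the 11 endoplasmic reticulum genes, with a filled point for the miR-99a array, an open point for the si-GL2 array and a dotted line at the expression limit of 47.2. The filled point lies to the left in every probe set of HSPA5, DNAJB9, DNAJC3 and SEL1L and to the right in those of PDIA4, HYOU1 and EDEM1.

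The endoplasmic reticulum genes were split between higher and lower members, with 20 expressed probe sets between -0.46 and 0.49, and 0 of them passed 1.5-fold in either direction. Of these, 7 (35%) differed by 0.3 or more, as did 10 of the 32 of the amino acid genes (31.25%) and 22.6% of all expressed single-gene probe sets. HSPA5, which encodes BiP, the main chaperone of the compartment and the usual readout of its stress, was 4373 against 4687 (-0.10) and 131 against 156 (-0.23). HYOU1, which exchanges the nucleotide of BiP and is itself a chaperone, was 2373 against 2056 (0.21). These partners thus lay on opposite sides of 0. DNAJB9, a J-domain cochaperone of BiP that restrains the sensor IRE1, was 1169 against 1237 (-0.08), 496 against 503 (-0.02) and 242 against 340.05 (-0.46). DNAJC3, another cochaperone, known as p58IPK, was 572 against 579.5 (-0.02) at its brightest, and 3 further probe sets were between -0.36 and -0.10. All 7 probe sets of these cochaperones were lower, the brightest of each by little.

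SDF2L1, a component of chaperone complexes with BiP, was 671 against 897 (-0.41), the lowest of the folding genes measured by 1 probe set. CRELD2, a stress-induced secretory protein, was 1495 against 1650.2 (-0.14). PDIA4, a disulphide isomerase, was 2623 against 2352 (0.16) and 648 against 461 (0.48), higher in both. Of the 14 probe sets of the 7 folding genes, 3 were above 0, those of PDIA4 and HYOU1, against 46.0% of all expressed single-gene probe sets. DNAJB9 holds 3 of the 14 and DNAJC3 holds 4, so the 14 are not separate genes. XBP1, the transcription factor of the IRE1 arm, was 2995 against 2859.9 (0.07) and, by a dim probe set below the limit, 32.5 against 32.25 (0.01). The spliced form of XBP1 mRNA, which is the active one, was not measured separately here. HSPA5, XBP1 and CRELD2, the members with the stress element shown above, lay between -0.23 and 0.07 in their expressed probe sets.

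Genes that mark and extract misfolded proteins for degradation also went apart. EDEM1, which directs misfolded glycoproteins to degradation, was 1335 against 947 (0.49), the highest value of the endoplasmic reticulum genes. HERPUD1, a membrane component of the degradation machinery, was 2767 against 2447 (0.18), and its dim second probe set, below the limit, was 27.2 against 47.6 (-0.56). SEL1L, the adaptor of the HRD1 ubiquitin ligase, was 620.2 against 702 (-0.17), 243 against 325 (-0.40) and 137 against 194 (-0.46). The remaining probe set of SEL1L, below the limit, was 41.4 against 51.4 (-0.23), so that all 4 were lower after miR-99a.

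**Figure D4:**
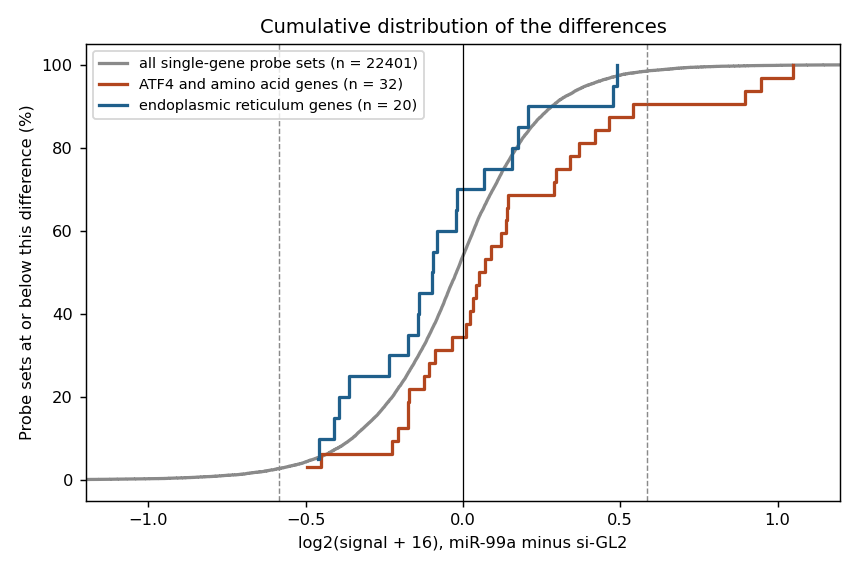
Cumulative share of expressed probe sets by their difference, miR-99a minus si-GL2, for all single-gene probe sets (n = 22401), the ATF4 and amino acid genes (n = 32) and the endoplasmic reticulum genes (n = 20). The amino acid curve lies to the right of the grey one over most of its range and ends at 1.05, and the endoplasmic reticulum curve lies to its left over most of its range and ends at 0.49.

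Some members had several expressed probe sets. These lay on the same side of 0 in 6 of 8 amino acid genes, the exceptions being TRIB3 and PSAT1, and in 5 of 5 endoplasmic reticulum genes. The same share over all genes with several expressed probe sets was not computed, so these counts only describe the members. Taking 1 value per gene, from its brightest probe set, 14 of 21 amino acid genes lay above 0 with a median of 0.07, and 5 of 11 endoplasmic reticulum genes with a median of -0.02. Over 12218 expressed genes 43.7% lay above 0 and the median was -0.03. Past 1.5-fold were 2 amino acid genes, both higher, and 0 endoplasmic reticulum genes, against 1.21% of expressed genes higher and 2.90% lower. The median of the endoplasmic reticulum genes depended on how probe sets were combined: it was -0.10 over expressed probe sets, -0.02 by the brightest probe set of each gene and -0.15 by the mean over all probe sets of each gene.

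Other genes of the same pathways, 87 that are not members, were read by their brightest probe set, and 74 were expressed. Of these 74 genes, 44 lay above 0, a larger share than the 43.7% of all expressed genes, and the median was 0.02. Past 1.5-fold, 1 of the 74 was higher and 1 of the 74 lower, against 1.21% and 2.90% of all expressed genes. Over all their 157 expressed probe sets, 3 were higher and 2 lower past 1.5-fold, against 1.53% and 2.76% of all expressed single-gene probe sets. The 14 genes of eIF2 signalling, kinases, exchange factor subunits and phosphatase subunits among them, lay between -0.21 and 0.22. EIF2B5, a subunit of the exchange factor, was 697 against 812 (-0.21) and EIF2B3, another, 465 against 493 (-0.08). The stress protein gene NUPR1 was 2362 against 2025 (0.22) and EIF2AK1, the haem-regulated eIF2 kinase, 2423 against 2119 (0.19). Over all 21 expressed probe sets of the list, 1 differed by 0.3 or more (4.76%, against 22.6% of all), a probe set of EIF2S1, the alpha subunit of eIF2, at -0.37.

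Of 16 aminoacyl-tRNA synthetases, which load tRNAs with amino acids, 14 lay above 0, against 43.7% of all expressed genes. The 14 include TARS1 (0.0003) and LARS1 (0.0008), which lay closer to 0 than the difference between the array medians (0.0093). By the brightest probe set of each of the 16, 0 passed 1.5-fold, and the median was 0.08. HARS1 for histidine was highest at 1456 against 1108 (0.39), followed by IARS1 for isoleucine at 4063 against 3400.0 (0.26). WARS1 for tryptophan was lowest at 752 against 829.98 (-0.14), with another probe set at 0.10, and FARSB for phenylalanine was at -0.06, with another at 0.17. Over all 30 expressed probe sets of the list, 25 lay above 0, against 46.0% of all expressed single-gene probe sets. Past 1.5-fold was 1, against 1.53% of all that were higher. It was a dimmer probe set of VARS1 for valine at 0.71, and the brightest of VARS1 was at 0.10. EPRS1 for glutamate and proline reached 0.56 and LARS1 for leucine 0.38 by dimmer probe sets, against 0.05 and 0.00 by their brightest. VARS1, EPRS1, LARS1, TARS1 and EIF2S1 were named after their values were seen.

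Of 7 further amino acid transporters, 6 lay above 0, against 43.7% of all expressed genes. SLC36A1, a proton-coupled transporter of small amino acids found on lysosomes, was 1294 against 848 (0.60), past 1.5-fold, but its second expressed probe set was at -0.07. SLC1A4, a carrier of alanine, serine and cysteine, was 92.4 against 77.5 (0.21), and its 4 expressed probe sets ranged from 0.04 to 0.51. The glutamine carrier SLC38A1 was 2231 against 2209 (0.01) and SLC43A1, a carrier of large neutral amino acids, 1807 against 1901 (-0.07). SLC36A1 was the only carrier of this list with an expressed probe set past 1.5-fold, 1 of 17. Of all expressed single-gene probe sets 1.53% were higher past 1.5-fold.

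Of 8 expressed enzymes of amino acid, folate and glutathione metabolism, 5 lay above 0, against 43.7% of all expressed genes. ARG2, the mitochondrial arginase that breaks down arginine, was 388 against 882 (-1.15), past 1.5-fold, while its second expressed probe set was at -0.06. GCLM and GCLC, the subunits of the enzyme that starts glutathione synthesis, were 1631 against 1314 (0.31) and 483 against 599.6 (-0.30). CBS, which starts the conversion of homocysteine to cysteine, was 3133 against 2762 (0.18). The subunits of glutathione synthesis therefore differed in opposite directions, and the other probe sets of GCLM reached down to 0.00.

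The unfolded protein sensors and the proteases that activate ATF6 were 4 expressed genes. MBTPS2 was 1255 against 1616 (-0.36) and MBTPS1 730.03 against 833 (-0.19), both proteases of the Golgi that cleave ATF6. ERN1, which encodes IRE1, was 438 against 389 (0.16) and ATF6 itself 309 against 283 (0.12) by their brightest probe sets. Other expressed probe sets reached down to -0.11 for ERN1 and -0.21 for ATF6, and the means over expressed probe sets were 0.01 and -0.03. Of the 11 expressed probe sets of the list, 3 lay above 0, against 46.0% of all expressed single-gene probe sets. Of 25 other folding and degradation genes, 9 lay above 0, against 43.7% of all expressed genes. By their brightest probe set 0 passed 1.5-fold, and the median was -0.03. ERO1B, an oxidase that renews disulphide isomerases, was lowest at 158 against 232 (-0.51), and SIL1, an exchange factor for BiP, was at -0.20. ERO1A, its paralog, was 2121 against 1863 (0.19), with other probe sets up to 0.92, and HSP90B1, the chaperone GRP94, was 2950.3 against 2680 (0.14), with another at 0.50. The ERO1 paralogs thus differed in opposite directions. Over all 62 expressed probe sets of this list, 1 was higher and 1 lower past 1.5-fold, against 1.53% and 2.76% of all expressed single-gene probe sets. The lower one was a dimmer probe set of DERL2, a channel component of the degradation machinery, at -0.69 against -0.02 by its brightest. SERP1, a stress-associated membrane protein, reached -0.58 by a dimmer probe set against 0.04 by its brightest. DERL2 and SERP1 were named after their values were seen.

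**Figure D5:**
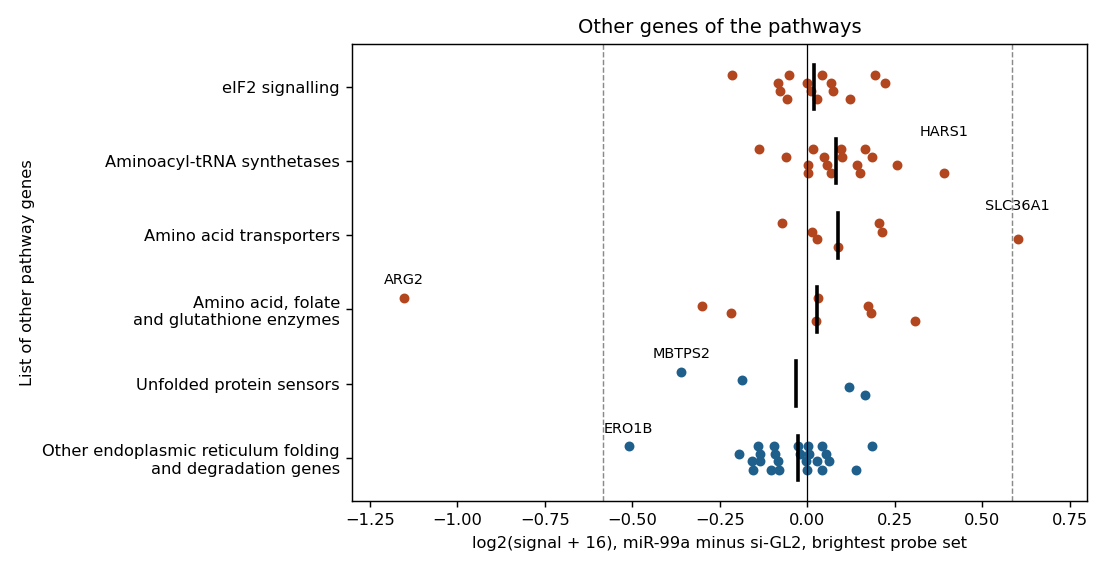
Difference of 74 expressed pathway genes that are not members, by their brightest probe set (1 point per gene), in 6 lists, with the median of each list as a black bar and dashed lines at 1.5-fold. ARG2 lies past the lower line and SLC36A1 just past the upper one, and the medians lie between -0.03 and 0.09.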

How the data were processed

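The deposited table holds a linear signal intensity for 54675 probe sets on each of 2 arrays. Per the labels' protocols, Trizol was used for extraction, and biotin labelling followed the Affymetrix protocol. How the authors summarised and scaled the probes is not given in the sources used here. No detection calls were used. The number of arrays limits the precision. Signals were used as deposited and transformed to log2(signal + 16). Names came from the platform annotation, in which 41091 probe sets have 1 gene and 1801 have several; the latter and Affymetrix controls were left out. Named genes are all members and, of each pathway list, the 2 highest and 2 lowest expressed genes by difference at their brightest probe set. The lists hold 7 genes without a single-gene probe set, not analysed here. Members and lists were chosen with earlier results of these data known. The size rule was tested on simulated data. Alternatives were a 2-fold rule, centring, quantile normalization, pseudocounts of 1 and 64, no limit, a limit at the 75th percentile, and 3 choices of probe sets. Python 3.11.15, numpy 2.4.6, pandas 2.3.3 and matplotlib 3.10.9 were used.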

Additional observations from a re-analysis of the deposited data

How the results depend on the processing

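The count of amino acid probe sets past 1.5-fold, 3 of 32, fell to 1 (ASS1) with a 2-fold rule. It was 2 to 4 under the other 9 alternatives, the fourth being a probe set of SESN2 with a pseudocount of 1. The counts of 2 were out of 21 genes, with 1 value per gene, or out of 15 probe sets without the _x_ and _s_ kinds. The endoplasmic reticulum count was 0 under all 10. The median of the amino acid genes ranged from 0.042 to 0.098 and that of the endoplasmic reticulum genes from -0.15 to -0.018. Of 276 values of single members, 11 moved by the spread between probe sets (0.13) or more. They belonged to 6 genes: SLC7A11, PDIA4, DNAJC3, SEL1L, ASNS and HERPUD1. The value of a member with 1 probe set could not move under the choices of limit or of probe sets. Other signs appeared for ASNS (-0.14) and HERPUD1 (-0.19), where dim probe sets were averaged in. No paired analysis was possible because each group holds 1 array. Without _x_ and _s_ probe sets, 12 members, ASS1 among them, had no value. A probe set below the expression limit enters the data on ASNS, HERPUD1, ATF3, XBP1 and SEL1L, and no background level was used.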
